A study of Mus musculus with 6 samples.

Results

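The fatty acid desaturases and elongases described here are 10 genes chosen by symbol: the stearoyl-CoA desaturases Scd1 and Scd2, the elongases Elovl1, Elovl3, Elovl4, Elovl5 and Elovl6, and the Fads desaturases Fads1, Fads2 and Fads3. They were read from 37620 gene identifiers in 6 RNA-seq libraries of mature brown fat, the floating adipocyte layer of collagenase-digested tissue. Of the libraries, 3 came from mice with the genotype label PHOSPHO1 knockout (KO) and 3 from mice labelled wild type (WT). All mice had a C57BL/6 background and were 6 weeks old, and each library pooled 3 mice. How the knockout allele was made, and whether it acts in all tissues, is not stated in the labels.

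Desaturases place double bonds into fatty acyl-CoA, and elongases add carbon units to it, both at the endoplasmic reticulum. Elovl6 lengthens palmitate to stearate and Scd1 turns these into palmitoleate and oleate, the monounsaturated fatty acids that fill triglyceride. Fads2, Elovl5 and Fads1 act in turn on linoleic and alpha-linolenic acid to make polyunsaturated fatty acids such as arachidonic acid. In fat and liver, Scd1 and Elovl6 are textbook targets of the insulin-responsive factor SREBP-1c and of the oxysterol receptor LXR.

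Library totals were 10576800 to 13750632 counts in the KO-labelled group and 12132987 to 14239307 in WT, and the mitochondrial genome gave 39.1% to 56.5% of counts in the KO-labelled libraries and 39.3% to 54.3% in WT. Phospho1, the gene named in the label, held 18, 15 and 17 counts in the KO-labelled libraries and 13, 5 and 5 in WT (log2 fold change 1.53, SE 0.46, edgeR adjusted p = 0.056). Because 89.6% of its exonic bases also lie in exons of Zfp652 and 84.2% in exons of Abi3, these counts check the labels little, and the groups are called by their labels throughout. The 6 adipocyte markers, among them Adipoq and Fabp4, summed to 16342 to 23877 CPM (read counts scaled to library size, here to sizes corrected by the TMM method) in the KO-labelled libraries and 15568 to 22065 in WT, so the labelled cell type was present in both. The 6 brown adipocyte markers summed to 7558 to 9426 CPM in the KO-labelled libraries and 4312 to 6970 in WT. That sum rests on Ucp1, Cidea and Cox8b; of the 6, Cox7a1 was called higher (log2 fold change 1.02, edgeR adjusted p = 0.045) and Dio2, the thyroid hormone deiodinase, lower (-2.08, 0.018), at 13.4, 8.86 and 8.58 CPM in the KO-labelled libraries and 73.6, 30.5 and 26.1 CPM in WT. Prdm16 was at -0.51 (0.281). Counts in the libraries also moved with transcript length: relative to the other libraries, log2 level changed per doubling of length by -0.238, -0.0932 and -0.249 in KO-labelled libraries 1, 2 and 3, and by 0.306, -0.0255 and 0.30 in WT 1, 2 and 3.

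Scd1, Scd2 and Elovl6 were lower in the KO-labelled libraries, Elovl5, Elovl3, Fads1, Fads2 and Fads3 did not pass the threshold and overlapped between groups, and Elovl1 was higher in every KO-labelled library without passing it. Of the 10 genes, 9 passed the filter on low counts and were tested; Elovl4 did not pass it. Among those 9, edgeR called 3 lower and 0 higher (adjusted p under 0.05 over 12068 genes), where 3 lower and 1 higher had an unadjusted p under 0.05. DESeq2 called 3 lower and 1 higher, and limma-voom called 2 lower and 0 higher. Over all genes tested, 7.52% were called lower and 1.63% higher, 9.16% in all, and 18.6% were lower and 12.3% higher at an unadjusted p under 0.05, 30.8% in all. Levels did not overlap between the groups for 19.6% of all tested genes in the lower direction and 15.8% in the higher. The median log2 fold change of the 9 tested genes was 0.07, and that of all tested genes was 0.03. In bulk libraries, fewer cells of a type and less RNA per cell cannot be told apart.

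**Figure D1:**
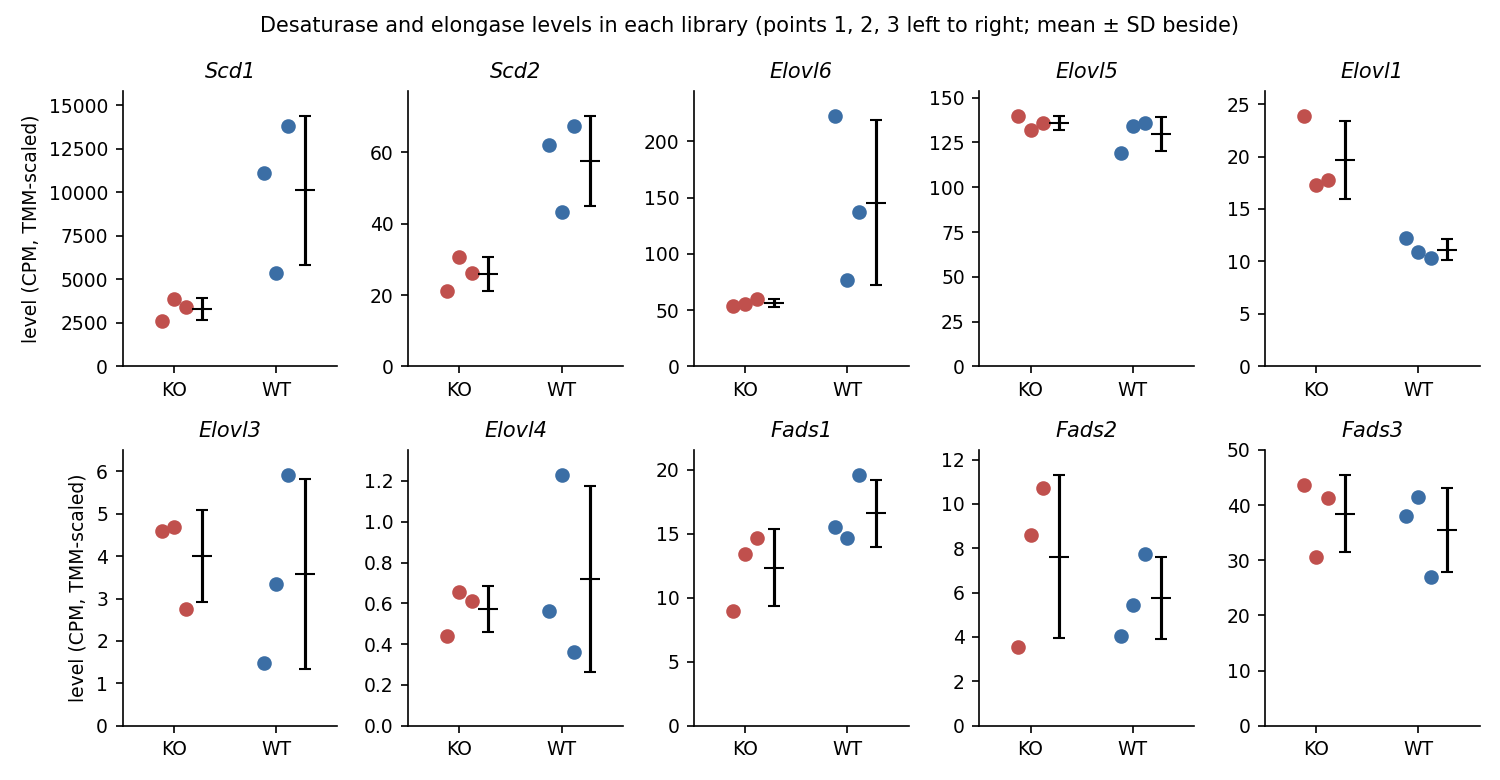
Level of each desaturase and elongase in every library, in CPM on TMM-scaled library sizes (vertical axes start at 0), with KO-labelled libraries in red and WT in blue; black marks give the mean and SD of 3 libraries. Scd1, Scd2 and Elovl6 lay lower in all 3 KO-labelled libraries than in any WT library, Elovl1 lay higher in all 3, and the groups overlapped for the other 6 genes. Among all tested genes, the groups did not overlap for 19.6% in the lower direction and 15.8% in the higher.

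Scd1, the desaturase that makes oleate and palmitoleate in adipose tissue and liver, was the most abundant of the 10 genes in every library. It stood at 2608, 3845 and 3386 CPM in KO-labelled libraries 1, 2 and 3, against 11130, 5383 and 13788 CPM in WT 1, 2 and 3. The highest KO-labelled library was below the lowest WT library, WT 2, and the other WT libraries lay far above both. The means were 3280 ± 626 CPM in the KO-labelled group and 10101 ± 4296 CPM in WT (SD, n = 3 each), a difference of -1.62 on the log2 scale (SE 0.35, edgeR adjusted p = 0.022). As a share of counts from nuclear genes, Scd1 took 0.458%, 0.746% and 0.622% in the KO-labelled libraries and 2.34%, 1.01% and 2.77% in WT. The adjusted p was 0.127 without WT 1, 0.081 without KO 3 and 0.054 without KO 2, with log2 fold changes of -1.55, -1.65 and -1.77. Over all genes, 0 higher and 0 lower were called without WT 1. Without KO 3 there were 2 higher and 0 lower calls, and without KO 2 there were 47 and 258.

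Scd2 catalyses the same reaction and is the form best known from brain and early development. It had 21.1, 30.6 and 26.2 CPM in the KO-labelled libraries, against 62.1, 43.4 and 67.5 CPM in WT. WT 2 was again the lowest WT library and still above every KO-labelled one. The log2 fold change was -1.15 (SE 0.26, edgeR adjusted p = 0.024). The adjusted p was 0.142 without WT 1, 0.084 without KO 3, 0.068 without WT 3 and 0.054 without KO 2. Log2 fold changes were then -1.10, -1.16, -1.05 and -1.30. Calls over all genes also fell in these fits, to 0 higher and 0 lower without WT 1 and 31 higher and 366 lower without WT 3.

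Scd1 and Scd2 lie on chromosome 19 beside Scd3 and Scd4, and their coding sequences are alike enough that some reads match several of them. In the GENCODE M21 transcripts (GRCm38), 90.7% of aligned coding bases were identical between Scd1 and Scd2, 91.5% between Scd1 and Scd3, and 86.1% between Scd1 and Scd4. The longest identical run was 147 bases with Scd2 and 185 bases with Scd3. Below are 90 coding bases of each gene, aligned to Scd1 and starting 30 bases before that run with Scd2 ends. They are shown because they hold a stretch that cannot separate Scd1 from Scd2 and the first bases after it that can. Capitals mark bases that differ from Scd1, and Scd3 and Scd4 have some within that stretch too. Counted from the first base of each start codon, the windows begin at base 640 in Scd1, 649 in Scd2, 652 in Scd3 and 634 in Scd4.
Scd1: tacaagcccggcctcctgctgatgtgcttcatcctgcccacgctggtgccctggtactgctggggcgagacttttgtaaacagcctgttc
Scd2: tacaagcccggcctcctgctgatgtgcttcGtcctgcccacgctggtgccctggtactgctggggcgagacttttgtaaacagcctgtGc
Scd3: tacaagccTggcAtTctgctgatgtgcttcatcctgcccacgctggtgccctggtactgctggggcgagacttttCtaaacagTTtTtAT
Scd4: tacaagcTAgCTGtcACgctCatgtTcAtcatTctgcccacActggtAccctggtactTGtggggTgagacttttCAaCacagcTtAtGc

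Over these 90 bases, Scd2 differs from Scd1 at 2 positions, Scd3 at 9 and Scd4 at 22. Over whole transcripts, 2.66% of all distinct 50-base words of Scd2 transcripts, and 4.77% of those of Scd3, also occur in Scd1. In turn, 2.97% of the words of Scd1 transcripts occur in Scd2 and 3.42% in Scd3. These shares of Scd1 are larger than the Scd2 and Scd3 counts were relative to Scd1 counts. For each 1000 Scd1 counts there were 8.11, 7.96 and 7.75 Scd2 counts in the KO-labelled libraries and 5.58, 8.06 and 4.89 in WT. Scd3, whose known site of expression is the sebaceous gland, held 30.5, 29.9 and 18.1 counts per 100000 Scd1 counts in the KO-labelled libraries and 22.8, 25.4 and 38.4 in WT. It was at 0.852 ± 0.272 CPM in the KO-labelled group and 3.07 ± 2.02 CPM in WT, a log2 fold change of -1.80 that did not pass the threshold (SE 0.52, edgeR adjusted p = 0.052). It was -2.15 without WT 2 (adjusted p = 0.024) and -1.21 without WT 3 (0.182). How reads with several matches were counted is not given in the sources used here. The levels and fold changes of Scd2 and Scd3 beside so abundant a copy are therefore uncertain.

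Among the elongases, Elovl6 and Elovl5 were the most abundant in WT, and they parted in the KO-labelled libraries. Elovl6, which acts on saturated and monounsaturated chains of palmitate length, had 53.3, 55.1 and 60.3 CPM in the KO-labelled libraries, against 223, 76.6 and 137 CPM in WT. The KO-labelled libraries lay close together, and WT 1 was far above the other WT libraries. The log2 fold change was -1.37 (SE 0.33, edgeR adjusted p = 0.031). It was -0.93 without WT 1 (adjusted p = 0.176), -1.45 without KO 3 (0.101), -1.38 without KO 2 (0.081) and -1.46 without WT 3 (0.051), and limma-voom gave -1.24 (0.055). Without WT 1, and likewise without KO 3, 0 of all tested genes were called lower.

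Elovl5, which lengthens polyunsaturated fatty acids, had 140, 132 and 136 CPM in the KO-labelled libraries and 119, 134 and 136 CPM in WT. It was the steadiest of the 10 genes, with means of 136 ± 3.72 CPM in the KO-labelled group and 129 ± 9.53 CPM in WT (SD, n = 3 each). Its log2 fold change of 0.07 did not pass (SE 0.21, edgeR adjusted p = 0.831) and turned to -0.18 with library sizes scaled by total counts alone, a scaling that moved the median of all genes to -0.23. Per kilobase of the longest transcript, the ratio of Elovl6 to Elovl5 level was 0.178, 0.195 and 0.207 in the KO-labelled libraries and 0.881, 0.268 and 0.471 in WT. Such a ratio within a library does not depend on how libraries are scaled, and it did not overlap between the groups. It does keep any dependence of counts on transcript length. Elovl6 (longest transcript 5951 bases) and Elovl5 (2782) lie in length deciles with median log2 fold changes of -0.61 and 0.20. The part of length in the ratio was not tested. Levels of single genes did not overlap between the groups for 35.4% of all tested genes.

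The promoters of this pair are shown because one gene was called lower and the other was not. Each is the 250 bases before the gene's start from the RefSeq promoter table (GRCm38.p6), where 6 of the 10 genes had an entry: Elovl1, Elovl4, Elovl5, Elovl6, Fads2 and Fads3. Both strands were searched for CCAAT (the NF-Y box), CACGTG (an E-box), TCACNCCAC (the core of a sterol regulatory element) and GGGCGG (the GC box), and capitals mark every match; Elovl6 lies at chr3:129532136-129532385 and Elovl5 at chr9:77917115-77917364, both on the plus strand.
Elovl6: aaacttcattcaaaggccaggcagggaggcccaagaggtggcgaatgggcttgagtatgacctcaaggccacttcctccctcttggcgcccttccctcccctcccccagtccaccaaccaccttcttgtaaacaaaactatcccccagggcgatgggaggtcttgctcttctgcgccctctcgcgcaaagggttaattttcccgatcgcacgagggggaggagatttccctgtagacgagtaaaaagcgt
Elovl5: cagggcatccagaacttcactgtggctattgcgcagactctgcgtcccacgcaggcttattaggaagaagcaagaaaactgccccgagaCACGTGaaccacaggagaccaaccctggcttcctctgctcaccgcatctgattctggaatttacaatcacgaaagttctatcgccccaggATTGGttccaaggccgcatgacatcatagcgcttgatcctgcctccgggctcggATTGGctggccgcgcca

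The Elovl6 window held 0 matches to these letters, and the Elovl5 window held 2 CCAAT matches, both on the opposite strand, and 1 CACGTG. Of 32851 promoter windows of this length, 33.8% held CCAAT, 32.7% GGGCGG, 6.02% CACGTG and 1.05% TCACNCCAC. None of the 6 genes with an entry held TCACNCCAC. These letter matches describe the windows only; binding was not measured.

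Elovl1, which makes saturated and monounsaturated very long chains for sphingolipids, was the 1 gene of the 10 that was higher in every KO-labelled library. It had 23.9, 17.3 and 17.8 CPM there, against 12.2, 10.9 and 10.3 CPM in WT, a log2 difference of 0.82 (SE 0.25, edgeR adjusted p = 0.059). The groups did not overlap, as was so for 15.8% of all tested genes in this direction, 19.6% in the other and 35.4% in either. The adjusted p passed with DESeq2 (0.038) and with upper-quartile scaling (0.049), and not in the other 17 alternatives run.

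Elovl3, an elongase of very long chains that is known in brown fat for its rise in the cold, was low here. It had 4.6, 4.68 and 2.76 CPM in the KO-labelled libraries and 1.47, 3.34 and 5.92 CPM in WT, which overlap and span a wider range in WT. The log2 fold change was 0.19 (SE 0.46, edgeR adjusted p = 0.795), and its sign turned without WT 1 (-0.20) and with the offsets for longest transcript length described below. Elovl4, which makes the ultra-long chains of retina and skin, held 5, 8 and 6 counts in the KO-labelled libraries and 10, 18 and 4 in WT, too few to be tested.

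The Fads desaturases did not pass the threshold. Fads1, which completes arachidonic and eicosapentaenoic acid, had 8.93, 13.4 and 14.7 CPM in the KO-labelled libraries and 15.5, 14.7 and 19.6 CPM in WT, a log2 difference of -0.43 (SE 0.27, edgeR adjusted p = 0.298). Fads2, which opens that pathway, had 3.54, 8.61 and 10.7 CPM in the KO-labelled libraries and 4.06, 5.46 and 7.72 CPM in WT, a log2 difference of 0.41 (SE 0.40, edgeR adjusted p = 0.491). The groups overlapped for both genes: KO 3 reached the WT range of Fads1 and KO 1 lay below all WT libraries for both, while KO 2 and KO 3 lay above all WT libraries for Fads2. Per kilobase, the Fads2 to Fads1 ratio was 0.435, 0.708 and 0.801 in the KO-labelled libraries and 0.288, 0.409 and 0.433 in WT. The groups thus met at 0.435 and 0.433. In KO 1 the ratio rests on 40 Fads2 and 101 Fads1 counts, too few to resolve so narrow a gap. Fads3, a desaturase of sphingoid bases, was the most abundant of the trio, at 43.6, 30.5 and 41.2 CPM in the KO-labelled libraries and 38.1, 41.4 and 26.9 CPM in WT (log2 fold change 0.12, SE 0.25, edgeR adjusted p = 0.772).

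**Figure D2:**
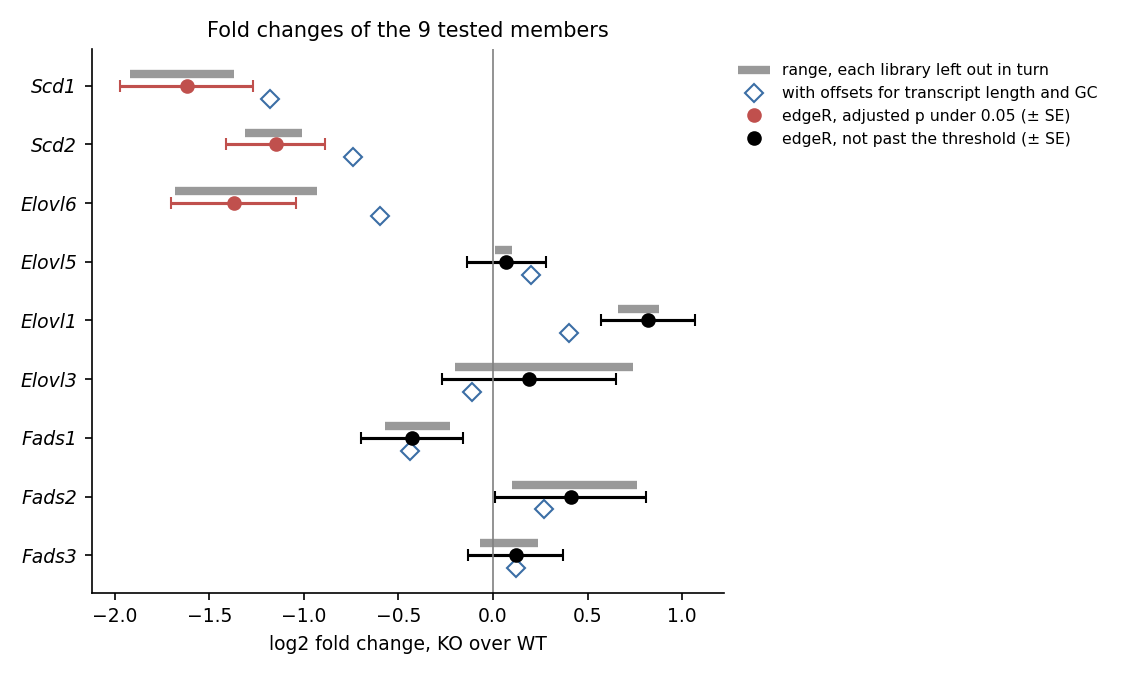
Log2 ratio of KO-labelled over WT libraries for the 9 tested genes (horizontal axis; circles with SE, red where the edgeR adjusted p was under 0.05), the range when each library was left out in turn (grey bars) and the value with offsets for longest transcript length and GC (open diamonds). Scd1, Scd2 and Elovl6 stayed below 0 throughout, at -1.18, -0.74 and -0.60 with the offsets, and the values of Elovl3 and of Fads3 lay on both sides of 0.

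The genes called lower are those of the 10 with the longest transcripts when each gene is represented by its longest annotated one. Their longest annotated transcripts measured 4832 bases for Scd1, 5455 for Scd2 and 5951 for Elovl6, and those of the other 7 genes measured 1811 to 3687 bases. Among all tested genes, the median log2 fold change was 0.59 in the decile of shortest transcripts and -0.78 in that of the longest. In the length deciles of Scd1, Scd2 and Elovl6 it was -0.38, -0.61 and -0.61, and 11.3% of genes in the decile of Scd1 and 18.6% in that of Scd2 and Elovl6 were called lower. Elovl1, with 1811 bases, fell in a decile with a median of 0.46. With the longest transcript's length and GC content taken up as offsets (the length and GC offsets below), Scd1 stood at -1.18 (edgeR adjusted p = 0.064), Scd2 at -0.74 (0.066), Elovl6 at -0.60 (0.228), Elovl1 at 0.40 (0.309) and Elovl3 at -0.11 (0.911). In that fit 0 of the 9 genes passed, and over all genes 1 was higher and 0 were lower (2785 at an unadjusted p under 0.05). By median transcript length Scd2 (3810.5 bases) and Elovl6 (2275) still led the 10, but Scd1 (750) was shorter than all but Elovl5 (661.5). With offsets for the median transcript and GC, Scd1 stood at -1.66 and passed (edgeR adjusted p = 0.049), and Scd2 at -0.72 (0.065), Elovl6 at -0.87 (0.110), Elovl1 at 0.61 (0.138) and Elovl3 at 0.22 (0.778) did not.

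**Figure D3:**
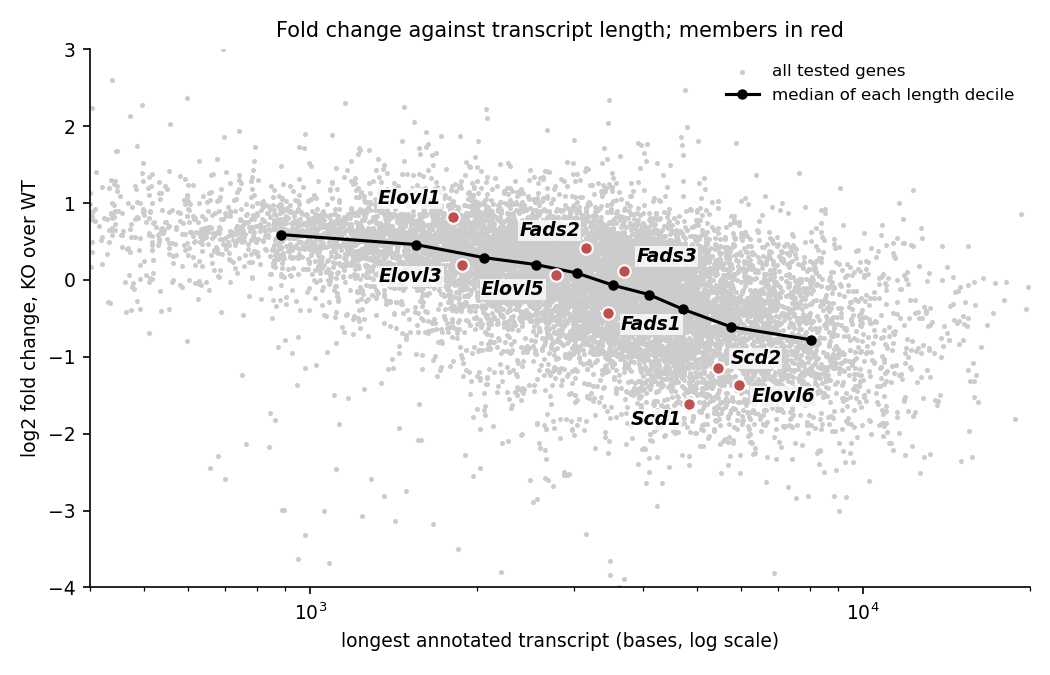
Log2 fold change of KO-labelled over WT libraries (vertical axis) against the longest annotated transcript (bases, log scale) for tested genes with a known length, with 114 of 11863 outside the axes; the line joins medians of length deciles. Scd1 at -1.62, Scd2 at -1.15 and Elovl6 at -1.37 lie below the line where it stands at -0.38 to -0.61, and Elovl1 at 0.82 lies above it.

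Set against each other per kilobase of longest transcript, the 10 genes kept Scd1 first and Elovl5 next in both groups, and the places after them differed. Scd1 averaged 679 ± 129 CPM per kilobase in the KO-labelled group and 2090 ± 889 in WT, and Elovl5 averaged 48.9 ± 1.34 in the KO-labelled group and 46.5 ± 3.42 in WT (SD, n = 3 each). In the KO-labelled group Elovl1 (10.9), Fads3 (10.4) and Elovl6 (9.45) followed with overlapping libraries, then Scd2 (4.76), Fads1 (3.57), Fads2 (2.42), Elovl3 (2.13) and Elovl4 (0.190). In WT Elovl6 (24.5) came next with libraries between 12.9 and 37.5, then Scd2 (10.6), Fads3 (9.61), Elovl1 (6.15), Fads1 (4.79), Elovl3 (1.90), Fads2 (1.82) and Elovl4 (0.239). Neighbours from Scd2 downwards overlapped in the KO-labelled libraries, apart from Elovl4; in WT, Scd2 and Fads3 overlapped, as did Elovl3 and Fads2. The order after Elovl5 depended on the transcript taken: per kilobase of the median transcript, Fads3 (33.4), Elovl6 (24.7), Elovl1 (17.3), Fads1 (13.9), Fads2 (8.67) and Scd2 (6.82) followed in the KO-labelled group, and Elovl6 (64.0), Fads3 (30.8), Fads1 (18.7), Scd2 (15.1), Elovl1 (9.80) and Fads2 (6.54) in WT.

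Scd1 alone made up 85.1%, 89.9% and 88.2% of the summed level per kilobase in the KO-labelled libraries and 95.2%, 92.2% and 96.3% in WT. Its ratio to Scd2 was 139, 142 and 146 in the KO-labelled libraries and 202, 140 and 231 in WT, where WT 2 lay within the KO-labelled range. Of the 5 elongases together, Elovl6 made up 12%, 13.4% and 14.4% in the KO-labelled libraries and 42.7%, 18.6% and 28.4% in WT, while Elovl5 made up 67.0% to 69.4% in the KO-labelled libraries and 48.5% to 69.5% in WT.

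**Figure D4:**
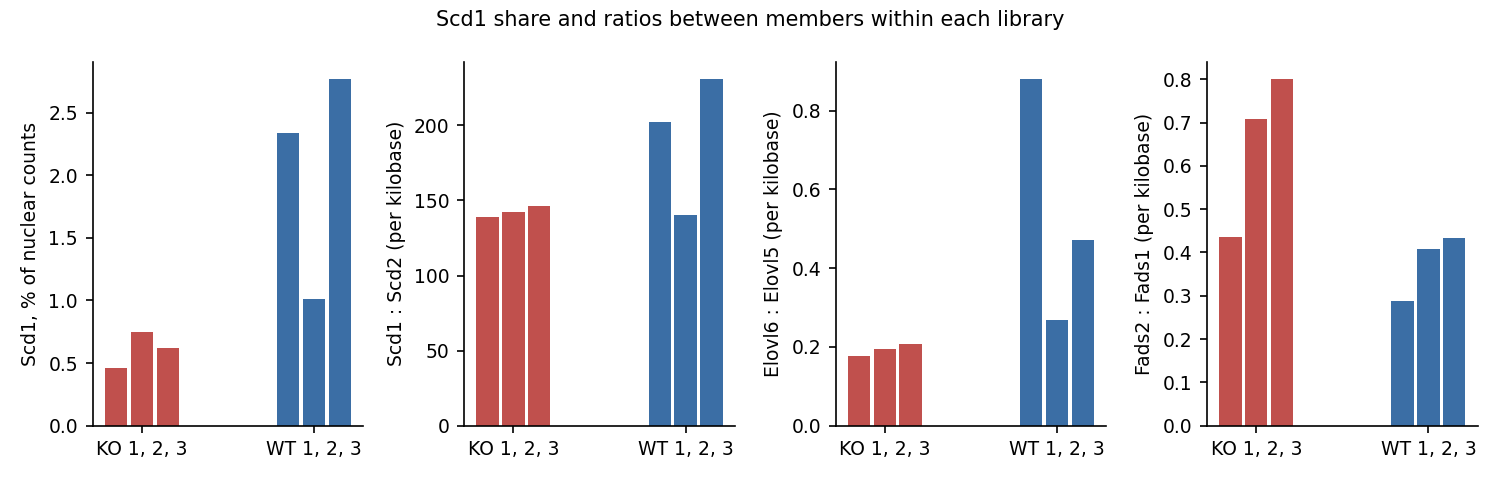
Bars give, for each library (KO-labelled 1 to 3 in red, WT 1 to 3 in blue), the percentage of nuclear counts from Scd1 and the ratios Scd1 to Scd2, Elovl6 to Elovl5 and Fads2 to Fads1 per kilobase of longest transcript; axes start at 0. WT 2 is the WT library nearest to the KO-labelled ones in the first 3 panels, at 1.01%, 140 and 0.268.

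WT 2 was thus the lowest WT library for Scd1, Scd2 and Elovl6, and it also had the WT length slope nearest to those of the KO-labelled libraries (-0.0255, against 0.306 and 0.30 in the others). Without it, Scd1 stood at -1.92, Scd2 at -1.31 and Elovl6 at -1.68 (edgeR adjusted p = 0.014, 0.017 and 0.014). Skeletal muscle markers were high in WT 3 alone among the libraries, at 864 CPM summed over 8 genes, against 28.4 to 84.8 CPM in the KO-labelled libraries and 27.8 and 66.7 CPM in WT 1 and WT 2; Myh1 and Myh2 were at 0 in at least 1 library. Without WT 3, Scd1 was at -1.37 and passed (edgeR adjusted p = 0.048), while Scd2 at -1.05 (0.068) and Elovl6 at -1.46 (0.051) did not. In the same fit Elovl3 moved to 0.74 (0.350). Summed leukocyte markers (5 of 5 detected in every library) were 208 to 478 CPM in the KO-labelled libraries and 78.6 to 176 CPM in WT. Most of that sum was Lyz2, a lysozyme of macrophages and the 1 of the 5 called higher (log2 fold change 1.43, edgeR adjusted p = 0.040), while Ptprc, the pan-leukocyte antigen CD45, was at -0.62 (0.344). The 5 erythroid markers summed to 1210 to 3505 CPM in the KO-labelled libraries and 366 to 1378 CPM in WT, with Hba-a1 and Alas2 called higher (1.85 and 1.42, adjusted p = 0.023 and 0.041). The 5 endothelial markers summed to 218 to 308 CPM in the KO-labelled libraries and 235 to 473 CPM in WT, with Tek and Flt1 called lower (-1.21 and -1.24, adjusted p = 0.040 and 0.044). White adipocyte markers (3 matched) were 143 to 265 CPM in the KO-labelled libraries and 306 to 435 CPM in WT, with Lep, which encodes leptin, called lower (-1.54, 0.023). The part of these marker lists in the desaturase and elongase results was not tested. Keratinocyte and sebaceous markers stayed at 4.16 to 6.33 CPM in the KO-labelled libraries and 4.57 to 7.03 in WT. Most of that sum was Krt79, while Krt5 and Krt14 were at 0 in every library and Far2 was at 0 in KO 1.

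Across the 6 libraries, 6046 other genes with a mean of at least 10 CPM were ranked by how closely their centred log2 levels followed Scd1. The nearest were Insr, the insulin receptor, then Ssh2, Sos2, Taf15 and Xdh, with root mean square differences of 0.109 to 0.159 log2 units, while Scd2 lay at 0.294 and Elovl6 at 0.361. Among the nearest to Elovl6 were D5Ertd579e, Arfgef1 and Hook3, at 0.0991, 0.13 and 0.146 log2 units. Log2 fold changes of these 8 genes ran from -1.32 for Arfgef1 to -1.76 for Taf15. The ranking used both groups, so fold changes near those of Scd1 and Elovl6 follow from the choice and are no separate result. With the length and GC offsets, Insr stood at -0.84 and D5Ertd579e at -0.54 (edgeR adjusted p = 0.079 and 0.230), and with the median transcript in its place at -1.48 and -0.97 (0.049 and 0.084).

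Around the desaturases and elongases, 72 genes in 7 lists gave 0 higher and 2 lower calls among 62 tested, with a median log2 fold change of 0.02. Over all tested genes, 1.63% were called higher and 7.52% lower. Of the 62, 15 had an unadjusted p under 0.05, where 30.8% of all tested genes did. The counts of each list below are to be read beside these shares, and short lists can hold few calls at such shares. Of 8 further family members, Scd3 (above) and Degs1, the sphingolipid desaturase that makes ceramide, were tested and 0 passed in edgeR, with 1 higher and 1 lower at an unadjusted p under 0.05. DESeq2 called both, Degs1 higher and Scd3 lower, and limma-voom called 0. Degs1 was at 155 ± 17.4 CPM in the KO-labelled group and 91.2 ± 18.7 CPM in WT (log2 fold change 0.76, edgeR adjusted p = 0.061; 0.92 and 0.035 without WT 2, 0.61 and 0.254 without WT 1).

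The enzymes that complete each elongation cycle, from Hsd17b12 to Tecr, gave 0 calls among 6 tested by edgeR, DESeq2 and limma-voom, with 2 higher at an unadjusted p under 0.05 in edgeR. Hacd1, a dehydratase of the cycle, was at 0.66 (adjusted p = 0.102) and Tecr, the final reductase, at 0.61 (0.162), which turned to -0.04 with the length and GC offsets. The cytochrome b5 genes and their reductases, which carry electrons to the desaturases, gave 0 calls among 5 tested by each tool and 0 at an unadjusted p under 0.05. The lowest p in that list belonged to Cyb5a (0.42, adjusted p = 0.293) and Cyb5b (-0.33, 0.322), and both changed sign with those offsets.

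The 9 genes listed for fatty acid synthesis, which include Mcat and Oxsm of the separate mitochondrial route, had a median log2 fold change of -0.49 and gave 0 calls in edgeR, with 2 lower at an unadjusted p under 0.05; DESeq2 called 1 lower and limma-voom 0. Mcat was at 0.57 (edgeR adjusted p = 0.163) and Oxsm at -0.42 (0.316). Acaca, the acetyl-CoA carboxylase that commits carbon to fatty acid synthesis, had 11.9, 10.4 and 21.4 CPM in the KO-labelled libraries, against 95.4, 17.3 and 78.4 CPM in WT. Its log2 fold change was -2.13 (SE 0.57, edgeR adjusted p = 0.053), and WT 2 lay inside the KO-labelled range. Without WT 2 it was -2.57 (adjusted p = 0.013), without WT 1 -1.72 (0.180), and without mitochondrial genome genes -2.15 (0.049). It was -1.33 with the length and GC offsets (adjusted p = 0.112), -1.18 with length alone (0.152) and -2.24 with the median transcript and GC (0.073). Acacb, its mitochondrial counterpart, was at -0.56 (adjusted p = 0.139) and changed sign with an offset for length alone. Fasn, the fatty acid synthase, was singled out after its values were seen: it had 182, 140 and 393 CPM in the KO-labelled libraries and 434, 133 and 436 CPM in WT (log2 fold change -0.49, adjusted p = 0.502).

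Among 19 regulators 0 passed in edgeR, DESeq2 or limma-voom, with 2 higher and 2 lower at an unadjusted p under 0.05 and a median of -0.15. Mbtps2, a protease that releases SREBP, was at -1.05 (edgeR adjusted p = 0.121), and Nr1h3, the LXR alpha receptor, at 0.60 (0.115). Mbtps2 stood at -1.46 without KO 1 (adjusted p = 0.040), at -0.66 without KO 3 (0.223) and at -0.39 with the length and GC offsets (0.540). Srebf1, which encodes SREBP-1 and was also singled out afterwards, had 20.3, 23.8 and 19.6 CPM in the KO-labelled libraries and 29.6, 20.3 and 31.9 CPM in WT (log2 fold change -0.36, adjusted p = 0.342). Here too WT 2 lay within the KO-labelled range.

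The 2 lower calls were among genes that use or finish the products. Cers6, a ceramide synthase that prefers palmitoyl-CoA, had 0.973, 1.89 and 1.43 CPM in the KO-labelled libraries, against 8.18, 4.78 and 5.56 CPM in WT, a log2 difference of -2.10 (SE 0.37, edgeR adjusted p = 0.016). It was the 1 call among 14 tested acyltransferase and ceramide synthase genes, whose median was 0.31; Soat1, a cholesterol acyltransferase, was at 0.91 (adjusted p = 0.094). Abcd2, a peroxisomal importer of very long chain acyl-CoA, had 20.2, 22.6 and 7.45 CPM in the KO-labelled libraries, against 113, 56.6 and 118 CPM in WT, a log2 difference of -2.52 (SE 0.41, edgeR adjusted p = 0.016). It was the 1 call among 7 genes of the peroxisomal step of docosahexaenoic acid synthesis, whose median was -0.30; Scp2, a lipid-transfer protein and thiolase, was at -0.84 (adjusted p = 0.109). Scp2 had 270, 195 and 95.6 CPM in the KO-labelled libraries and 303, 360 and 342 CPM in WT, and stood at -1.20 without KO 1 (adjusted p = 0.028) and -0.54 without KO 3 (0.224). With the length and GC offsets, Cers6 and Abcd2 stood at -1.34 and -1.77 (adjusted p = 0.062 for each), and with the median transcript and GC at -1.91 and -2.35, which passed (0.049 for each). Neither passed without WT 1 (-1.85 and -2.39, adjusted p = 0.122 for each) or without KO 3 (-2.11 and -2.18, adjusted p = 0.072 for each). Each of those fits gave 0 lower calls over all tested genes.

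**Figure D5:**
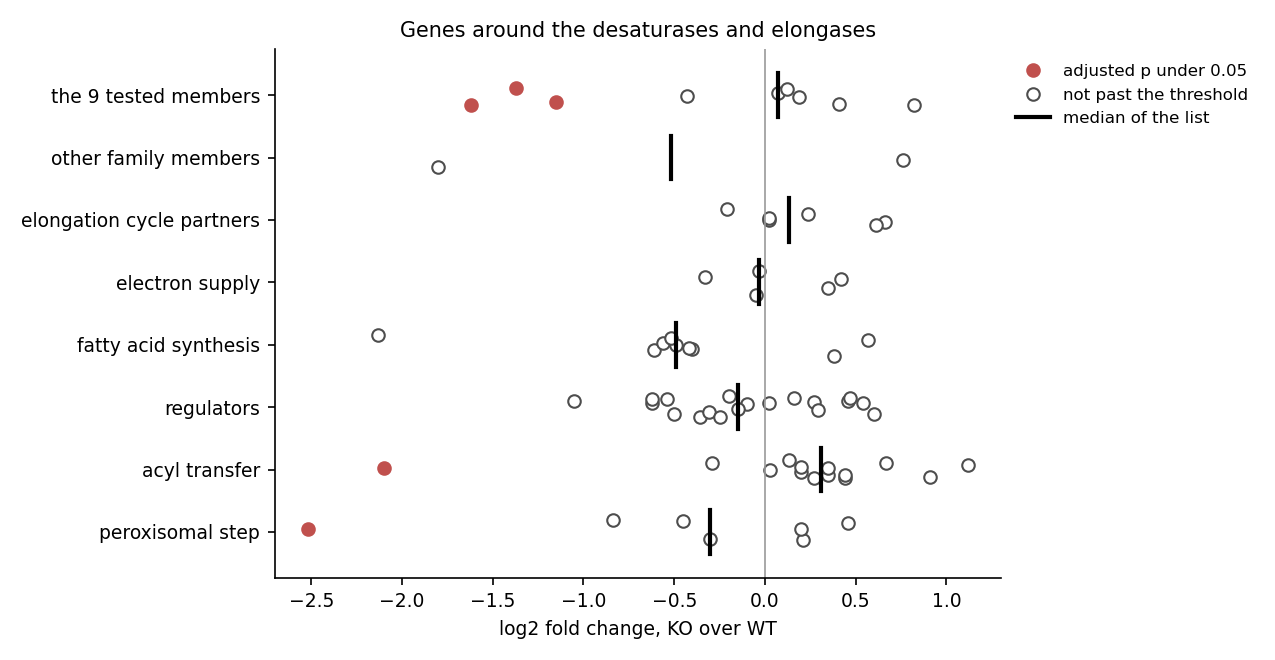
Log2 fold change of KO-labelled over WT libraries (horizontal axis) for the 9 tested desaturases and elongases and the 62 tested genes of the surrounding lists, 1 point a gene and 1 row a list, with the list median as a black bar; red points had an edgeR adjusted p under 0.05. Scd1, Scd2, Elovl6, Cers6 and Abcd2 are the red points, and the list medians lie between -0.52 and 0.31.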

How the data were processed

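RNA sequencing counts of 6 brown fat libraries were used, grouped by genotype label and numbered by title. The files deposited by the authors hold raw read counts for each Ensembl gene, 1 library a file, without normalization. The submitters' processing notes name STAR 2.5.4b and mm9. Counting program, strand setting and annotation release are not stated. Replicates are separate pools of mice.

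Symbols, transcript lengths and GC came by Ensembl identifier from GENCODE M21 (GRCm38), matching 32897 of 37620 identifiers. With edgeR 4.0.16 in R 4.3.3, genes were filtered by filterByExpr (minimum count 10, minimum total 15; 12068 kept), scaled by TMM and tested two-sided by the robust quasi-likelihood F test, with Benjamini-Hochberg adjustment over all tested genes and a threshold of 0.05. SEs were derived from F. The direction of every fold change is KO over WT. Alternatives were RLE, upper-quartile and total-count scaling, DESeq2 1.42.0, limma-voom (limma 3.58.1), legacy quasi-likelihood, other filters, a replicate block, leaving out libraries or mitochondrial genes, an adjusted p of 0.01, and offsets fitted per library on transcript length and GC (mgcv 1.9.3, basis size 6; genes without a length had none). The edgeR, DESeq2 and limma-voom fits were run on simulated counts with known fold changes. Those counts held no dependence on transcript length, so they cannot show how the fits behave under it. Coding sequences were aligned with Biopython 1.88.

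Named genes were the 10 members, Phospho1, list genes past the threshold or with the 2 smallest p in their list, and the 5 nearest to Scd1 and to Elovl6; some that this rule names are not reported here. Members, lists and alternatives were chosen with earlier results of these data known. Levels rest on 10576800 to 14239307 counts per library, and counting error adds to the spread of genes with few counts.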

Additional observations from a re-analysis of the deposited data

How the results depend on the processing

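Over all genes, the 197 higher and 908 lower calls became 29 and 1389 with total counts (2.05% of calls higher, against 17.8%), 1 and 0 with offsets for longest transcript length and GC, 83 and 141 with the median transcript in their place, 4 and 12 with length alone, and 1 and 0 at an adjusted p of 0.01. Higher calls were 493 with DESeq2 (26.8% of calls) and 113 with limma-voom. Leaving out single libraries gave 0 to 688 higher and 0 to 1383 lower. Of the desaturases and elongases, 1 (Elovl1) was called higher with upper-quartile scaling and 1 with DESeq2. The 3 lower calls became 0 with longest-transcript offsets (with and without GC), 1 (Scd1) with the median transcript, 0 at 0.01, and 0 to 3 without single libraries. In the surrounding lists, the 2 lower calls became 4 with total counts, 4 with DESeq2 (1 higher), 4 with the replicate block, 0 with either longest-transcript offset, 0 at 0.01, and 0 to 5 without single libraries (0 to 1 higher).

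Scd1, Scd2 and Elovl6 were lower in each of 19 alternatives. Scd1 was not past the threshold with offsets for longest-transcript length and GC (-1.18) or length alone (-1.16), was past it with the median transcript and GC (-1.66), and ran from -1.92 to -1.37 without single libraries. Scd2 was not past it with offsets (-0.74, -0.72 with the median transcript, -0.62 for length alone), and ran from -1.31 to -1.01. Elovl6 was not past it with limma-voom (-1.24) or offsets (-0.60, -0.87 and -0.73 in the same order), and ran from -1.68 to -0.93. Genes not past the threshold that changed sign were Elovl3 (-0.11 with length and GC, -0.12 with length alone, -0.20 to 0.74 without single libraries, below 0 without WT 1), Elovl5 (-0.18, total counts), Fads3 (-0.16, total counts; -0.11, median transcript; -0.07 to 0.24 without single libraries, below 0 without WT 3), Acacb (0.23, length alone), Cyb5a (-0.05 with either longest-transcript offset), Cyb5b (0.06, 0.25 and 0.01), Fasn (0.08 with length and GC, 0.44 with length alone) and Tecr (-0.04). The causes were not tested.

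With replicate number as a block, Scd1, Scd2 and Elovl6 stood at -1.55, -1.14 and -1.24 and no member changed its call. Deviations of same-numbered libraries from their group means had correlations of 0.145, -0.534 and 0.0318, and 0 of 3 KO-labelled libraries correlated best with their own number. With 3 libraries a group, this check cannot decide whether the numbers pair them. With median transcript lengths, the Scd1 to Scd2 ratio averaged 640 in the KO-labelled group and 859 in WT, against 142 and 191 with the longest, because the median Scd1 transcript has 750 bases, and the Elovl6 to Elovl5 ratio averaged 0.12 in the KO-labelled group and 0.336 in WT, against 0.193 and 0.54. Elovl3 and Elovl4, with 66 counts or fewer per library, are the members that depth limits most.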
